A study of Mus musculus with 17 samples.

Results

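A set of 10 genes of blood-derived and brain-resident immune cells was followed across 17 libraries of microvessels isolated from mouse brain cortex. The members are Ptprc, Ptpn6, Vav1, Dock2, Dock8, Was, Hcls1, Coro1a, Myo1f and Mpeg1, 10 of the 42687 genes in the deposited count table. They were chosen by name as genes of haematopoietic cells and were also selected on their measured counts, since several had been seen to be higher in APP/PS1 mice. The difference between genotypes is therefore given as a description, with no test. All 10 members passed the filter on low counts that kept 18753 genes.

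At 10 to 11 months of age, WT (wild-type) mice were compared with APP/PS1 mice, which form amyloid plaques. Every mouse had a peptide injected into the peritoneum at 10 mg/kg, every 2 days over 2 weeks. The peptide gp91-ds-tat blocks the NADPH oxidase NOX2, and the other, sgp91-ds-tat, is its control. The sample labels carry only APP for the genotype and NOX2 or SC for the peptide, here taken to mean the inhibitor and the control peptide. There were 5 libraries of WT with control peptide, 5 of WT with inhibitor, 2 of APP/PS1 with control peptide and 5 of APP/PS1 with inhibitor. So both genotypes were seen only after injection of a peptide. The labels do not say which promoter drives the transgenes, the sex of the mice, or whether a library came from a single mouse, so p-values measure only the spread between libraries, which may be technical.

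Total counts per library were between 7316503 and 17862965 (median 11342154), so 3 counts, taken as the smallest level a library could show, were worth 0.173 to 0.389 CPM. CPM are counts scaled to a common library total, on sizes adjusted by TMM, a method that corrects for differences in composition. No 2 of the 136 pairs of libraries were identical. Prnp, whose promoter sequence carries the transgenes in a widely used line of this kind (the labels do not name the line), was at 301 to 554 CPM in WT and 681 to 1416 CPM in APP/PS1, so each library went with its genotype label. The labels call the cells endothelial cells, pericytes and astrocyte endfeet. The summed markers of these cells were at 2248 to 4260 CPM for 7 endothelial genes. For 7 genes of pericytes and smooth muscle they were at 838 to 1466 CPM, and for 6 astrocyte genes at 2998 to 5173 CPM. Markers of neurons (2412 to 4091 CPM for 5 genes), oligodendrocytes (1341 to 2420 CPM for 5 genes) and microglia (237 to 498 CPM for 10 genes) were present as well.

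These genes encode the signalling and actin machinery that lets immune cells sense, crawl and engulf. Receptors at the surface are switched by tyrosine kinases and by the phosphatases CD45 (Ptprc) and SHP-1 (Ptpn6); the exchange factors VAV1, DOCK2 and DOCK8 then load the small GTPases RAC and CDC42; and WASP (Was), HS1 (Hcls1), coronin-1A (Coro1a) and myosin-1F (Myo1f) shape the branched actin network under the membrane. Mpeg1 encodes perforin-2, a pore-forming protein of macrophages. In healthy brain most of these genes are transcribed mainly in microglia and in macrophages of the vessel wall, and also in any leukocyte held inside a capillary.

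Many haematopoietic genes are driven from short promoters that bind ETS factors such as PU.1, so the 250 bases before each start site were searched for the ETS core letters GGAAGT on both strands. All 10 members matched an entry of the RefSeq promoter table for GRCm38.p6. The letters were found for 6 of 10 members, against 22.2% of the 27025 genes in the table. By window, they were in 7 of the 12 windows of the members and in 19.7% of all 32851 windows. The longer word GAGGAAGT, which contains the shorter one, was found for 1 member, Vav1, and for 2.79% of genes. The matches nearest to the start are shown so that the bases around the shared letters can be compared between members. Each line gives 40 bases, 5′ to 3′ on the strand of the gene, with the match in capitals (ACTTCC is the same word on the other strand).
Ptprc: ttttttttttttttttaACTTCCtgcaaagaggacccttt
Ptpn6: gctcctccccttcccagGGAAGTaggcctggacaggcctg
Vav1: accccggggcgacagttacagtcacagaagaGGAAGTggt
Dock8: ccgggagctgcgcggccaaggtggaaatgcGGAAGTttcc
Was: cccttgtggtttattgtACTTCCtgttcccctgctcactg
Hcls1: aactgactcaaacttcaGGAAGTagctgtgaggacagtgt

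These stretches lie at chr1:138175341-138175380 (minus strand) for Ptprc, chr6:124738788-124738827 (minus) for Ptpn6, chr17:57279060-57279099 (plus) for Vav1, chr19:24999489-24999528 (plus) for Dock8, chrX:8090493-8090532 (minus) for Was and chr16:36934908-36934947 (plus) for Hcls1. The match began 9 bases before the start in Vav1, 10 in Dock8, 24 in Was, 58 in Ptprc and Hcls1, and 101 in Ptpn6. The searched windows of Dock2, Coro1a, Myo1f and Mpeg1 did not hold these letters. A match of 6 letters is a description of sequence and not a measured binding site.

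The phosphatases act closest to the receptors. Ptprc (ENSMUSG00000026395, chr1:138062861-138175708, minus strand) encodes CD45, which keeps SRC-family kinases ready to signal. Its level was 15.4, 13.1, 13.1, 21.1 and 14.9 CPM in WT with control peptide and 15.5, 19.4, 11.3, 15.1 and 13.5 CPM in WT with inhibitor. It was 29.3 and 38.5 CPM in APP/PS1 with control peptide and 27.3, 35.2, 27.1, 26.0 and 31.8 CPM in APP/PS1 with inhibitor. Every APP/PS1 library was above every WT library, and within a genotype the 2 peptides overlapped. The mean of the 7 APP/PS1 libraries was 30.7 CPM ± 4.68 (SD) and that of the 10 WT libraries 15.2 CPM ± 2.97 (SD), a ratio of 2.02, and the fitted log2 change was 1.03 ± 0.12 (SE).

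Ptpn6 (ENSMUSG00000004266, chr6:124720707-124738714, minus strand) encodes SHP-1, the SH2-domain phosphatase that inhibitory receptors recruit. It was at 4.28, 2.51, 4.97, 5.80 and 5.22 CPM in WT with control peptide and at 5.04, 4.79, 4.21, 5.32 and 3.65 CPM in WT with inhibitor. In APP/PS1 it was at 6.24 and 6.31 CPM with control peptide and at 6.56, 9.14, 5.64, 6.71 and 5.98 CPM with inhibitor. The groups nearly separated: 6 of 7 APP/PS1 libraries were above every WT library. The log2 change was 0.53 ± 0.15 (SE), smaller than that of Ptprc.

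**Figure D1:**
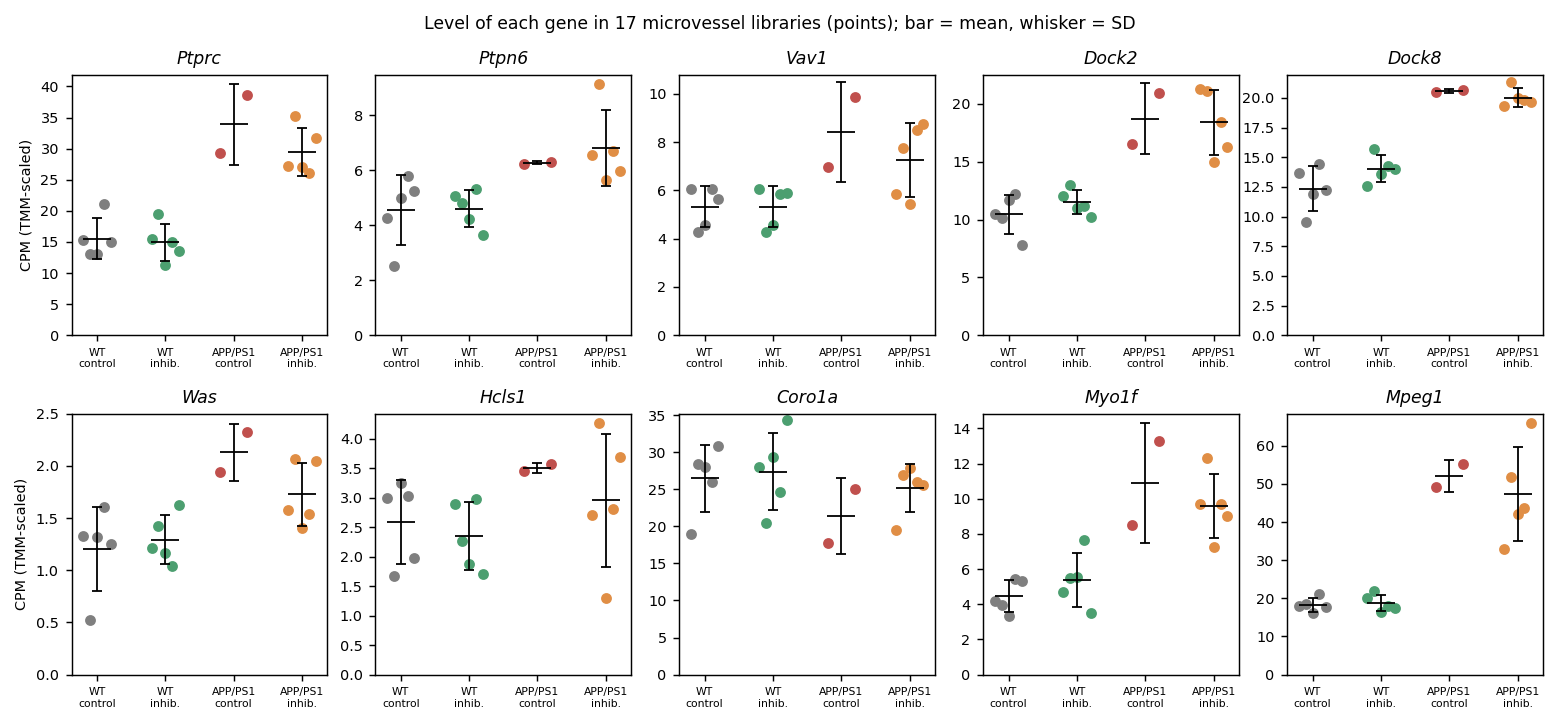
Level of each of the 10 genes (CPM on TMM-scaled library sizes, linear axis from 0) in the 17 libraries, 1 point a library, with the mean and SD of each of the 4 groups. The APP/PS1 points of Ptprc, Dock2, Dock8 and Mpeg1 all lie above the WT points, and those of Coro1a do not.

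The exchange factors come next. Vav1 (ENSMUSG00000034116, chr17:57279100-57328031, plus strand) encodes the RAC activator that is switched on by phosphorylation below immune receptors. It ranged from 4.27 to 6.07 CPM over the 10 WT libraries and from 5.42 to 9.89 CPM over the 7 APP/PS1 libraries, with 5 of 7 above every WT library and a log2 change of 0.53 ± 0.13 (SE).

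Dock2 (ENSMUSG00000020143, chr11:34226815-34783892, minus strand) encodes the RAC exchange factor that leukocytes need to migrate toward chemokines. It was at 10.5, 10.2, 11.7, 12.2 and 7.83 CPM in WT with control peptide and between 10.2 and 12.95 CPM in WT with inhibitor. In APP/PS1 it was at 16.5 and 20.9 CPM with control peptide and at 21.3, 21.1, 15.0, 18.4 and 16.3 CPM with inhibitor. The genotypes did not overlap, and the log2 change was 0.74 ± 0.10 (SE).

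Dock8 (ENSMUSG00000052085, chr19:24999534-25202432, plus strand) encodes a CDC42 exchange factor that keeps crawling leukocytes intact in tight spaces. It was at 13.7, 9.52, 11.9, 14.5 and 12.2 CPM in WT with control peptide, and at 12.6, 15.7, 13.6, 14.3 and 13.97 CPM in WT with inhibitor. In APP/PS1 it was at 20.5 and 20.7 CPM with control peptide and at 19.3, 21.4, 20.0, 19.8 and 19.6 CPM with inhibitor. The 7 APP/PS1 libraries lay within 19.3 to 21.4 CPM, with an SD of 0.706 CPM against 1.73 CPM in WT. The log2 change was 0.59 ± 0.08 (SE), the smallest SE among the members.

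The actin regulators were less alike. Was (ENSMUSG00000031165, chrX:8081453-8090498, minus strand) encodes WASP, which turns CDC42 into actin branching by the ARP2/3 complex. It was scarce, with 5 to 32 counts a library, and ranged from 0.523 to 1.63 CPM in WT and from 1.41 to 2.33 CPM in APP/PS1. The ranges overlapped, and the log2 change was 0.55 ± 0.19 (SE). Hcls1 (ENSMUSG00000022831, chr16:36934983-36963212, plus strand), the leukocyte relative of cortactin, had 12 to 58 counts a library. Its WT libraries ranged from 1.67 to 3.25 CPM and its APP/PS1 libraries from 1.30 to 4.28 CPM, so the lowest library of all was an APP/PS1 one. Its log2 change was 0.39 ± 0.20 (SE).

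Myo1f (ENSMUSG00000024300, chr17:33555707-33607764, plus strand) encodes a class I myosin of myeloid cells that links actin to the membrane. It was at 4.16, 3.98, 3.35, 5.44 and 5.33 CPM in WT with control peptide and at 4.67, 5.50, 5.56, 7.66 and 3.49 CPM in WT with inhibitor. In APP/PS1 it was at 8.48 and 13.3 CPM with control peptide and at 9.72, 12.3, 7.27, 9.70 and 9.01 CPM with inhibitor. A single WT library, at 7.66 CPM, was above the lowest APP/PS1 library, at 7.27 CPM. The log2 change was 1.02 ± 0.16 (SE), close to that of Ptprc.

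Coro1a (ENSMUSG00000030707, chr7:126699773-126707787, minus strand) encodes coronin-1A, which binds actin in leukocytes and is also made by neurons. It did not follow the other members. It was at 19.0, 28.5, 28.0, 26.1 and 30.9 CPM in WT with control peptide and at 28.0, 20.5, 29.4, 24.7 and 34.3 CPM in WT with inhibitor. In APP/PS1 it was at 17.8 and 25.1 CPM with control peptide and at 19.6, 26.9, 27.9, 26.0 and 25.5 CPM with inhibitor. No APP/PS1 library was above every WT library, and the log2 change was -0.19 ± 0.12 (SE).

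Mpeg1 (ENSMUSG00000046805, chr19:12460779-12465283, plus strand) encodes the pore-forming protein perforin-2, which acts on engulfed bacteria. It was at 17.9, 18.5, 16.2, 21.1 and 17.7 CPM in WT with control peptide and at 20.2, 21.8, 16.5, 17.9 and 17.5 CPM in WT with inhibitor. In APP/PS1 it was at 49.2 and 55.2 CPM with control peptide and at 32.9, 51.9, 42.2, 43.6 and 65.9 CPM with inhibitor. It had the largest difference among the 10 members, with means of 48.7 CPM ± 10.5 (SD, n = 7) and 18.5 CPM ± 1.89 (SD, n = 10), a ratio of 2.63 and a log2 change of 1.40 ± 0.11 (SE). The spread in APP/PS1 was wide, yet its lowest library, at 32.9 CPM, was above the highest WT library, at 21.8 CPM.

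In all, 9 of 10 members had a higher fitted level in APP/PS1, and 4 of 10 had all 7 APP/PS1 libraries above all 10 WT libraries. Over all 18753 genes, 50.7% had a log2 change above 0 and 0.267% had APP/PS1 libraries wholly above. These counts partly restate how the members were chosen. The median log2 change was 0.57 over the members and 0.0017 over all genes. With control peptide the members' median was 0.76 and with inhibitor 0.54, with 9 of 10 above 0 in each (51.2% and 50.6% of all genes), and these 2 comparisons rest on different libraries of each genotype. In bulk RNA a larger number of cells of a type and more RNA per cell cannot be told apart. The members just inside and just outside full separation were Dock2, whose lowest APP/PS1 library was at 15.0 CPM against a highest WT library at 12.95 CPM, and Ptpn6, at 5.64 against 5.80 CPM.

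Levels can be set side by side between genes only per length. Per kilobase of annotated exons, Coro1a was the most abundant member, at 9.26 CPM per kb ± 1.59 (SD, n = 17), followed by Mpeg1 at 7.14 ± 3.84 and then by Ptpn6 at 1.94 ± 0.52, and Was was the lowest at 0.63 ± 0.18. The remaining 6 members lay between 1.08 and 1.70 CPM per kb, and neighbours in that order differed by less than their spread over libraries. Mpeg1 was below Coro1a in WT (4.28 against 9.68 CPM per kb) and above it in APP/PS1 (11.2 against 8.66 CPM per kb). The place of Ptprc depends on the gene length used, because its annotated exons span 18.3 kb and its longest coding transcript 5.07 kb: it ranked 8 of 10 by the former and 3 of 10 by the latter, at 4.26 CPM per kb.

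The choice of members did not use the peptide, and the effect of the NOX2 inhibitor was tested. The inhibitor and interaction comparisons share libraries with the genotype difference that partly guided the choice. Their signs and p-values are therefore not fully independent of it. No member passed the test. In WT, 0 of 10 members passed an adjusted p of 0.05 by edgeR's quasi-likelihood test, 0 had an unadjusted p under 0.05, and 0 passed by DESeq2. The background was 0.0% of 18753 genes at the adjusted threshold and 1.34% at the unadjusted one. In APP/PS1 the members' counts were again 0, 0 and 0, with 0.0% and 1.8% of all genes, and over both genotypes 0, 0 and 0, with 0.0% and 2.11%. The members' log2 changes with inhibitor ran from -0.17 to 0.26 in WT (7 of 10 above 0, against 50.6% of all genes) and from -0.29 to 0.23 in APP/PS1 (2 of 10 above 0, against 50.2%). Over both genotypes 5 of 10 were above 0, against 51.4%. The medians were 0.05 in WT and -0.15 in APP/PS1, where those over all genes were 0.0012 and 0.0010.

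A p above the threshold does not show that the peptides act alike, so the 95% intervals of the log2 change are given. For Ptprc the interval was -0.38 to 0.28 in WT and -0.61 to 0.21 in APP/PS1. For Mpeg1 it was -0.27 to 0.35 in WT and -0.53 to 0.25 in APP/PS1. These intervals lie below the 1.03 and 1.40 by which the genes differed between genotypes. The estimates for Dock8 had the narrowest intervals among the members, at -0.04 to 0.41 in WT and -0.32 to 0.24 in APP/PS1. For Hcls1 they were -0.75 to 0.40 and -0.93 to 0.47, and for Was -0.44 to 0.65 and -0.92 to 0.35, the widest among the members. The estimates in APP/PS1 rest on 2 control libraries: without replicate 2 of that group, the log2 change of Ptprc moved from -0.20 to 0.0073.

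A difference of the inhibitor effect between WT and APP/PS1 was tested as an interaction. By edgeR's quasi-likelihood test 0 of 10 members passed an adjusted p of 0.05, 0 had an unadjusted p under 0.05, and 0 passed by DESeq2, with 0.0% and 0.843% of all genes. The estimates were above 0 for 2 of 10 members, against 49.3% of all genes, with a median of -0.17, and all of them share the same 2 APP/PS1 control libraries. The largest in size was that of Myo1f, -0.42 ± 0.32 (SE). Its level by group was 4.45 and 5.38 CPM in WT with control peptide and inhibitor, and 10.9 and 9.60 CPM in APP/PS1, with overlapping libraries of the 2 peptides in each genotype.

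**Figure D2:**
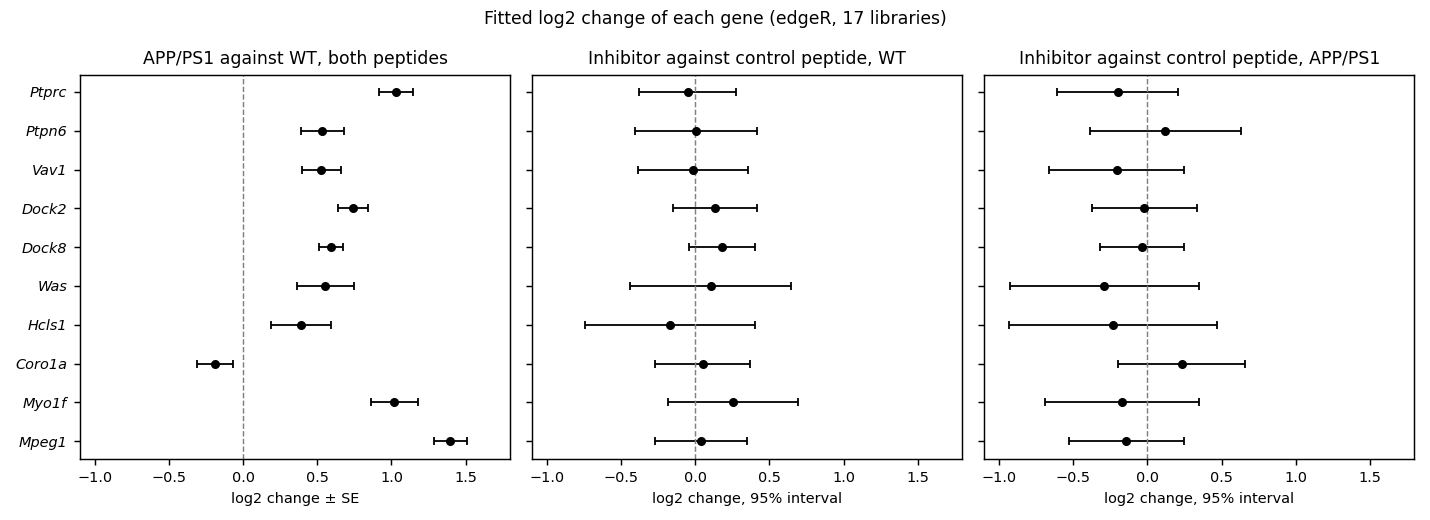
Fitted log2 change of each gene from edgeR over 17 libraries: APP/PS1 against WT over both peptides with SE, and inhibitor against control peptide within WT and within APP/PS1 with 95% intervals. Estimates for genotype run from -0.19 (Coro1a) to 1.40 (Mpeg1), and each inhibitor interval includes 0.

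Each member has relatives that are used outside the blood lineage. A list of 57 other genes of the same protein families served for comparison, and 52 of them passed the filter. For genotype over both peptides 0 of 52 passed an adjusted p of 0.05 by edgeR, where 0.587% of all 18753 genes did. Their median log2 change was 0.02, with 29 above 0 and 23 below. Because the members were chosen partly on this difference, a contrast between them and their relatives partly restates that choice. Washc1, a subunit of the endosomal WASH complex chosen after its values were seen, was the 1 family gene past the threshold with DESeq2, with a log2 change of -0.32.

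The most abundant relatives named here were close between genotypes. Ptprb, the phosphatase of the endothelial VE-cadherin complex, was at 990 CPM ± 259 (SD, n = 10) in WT and 1097 CPM ± 292 (SD, n = 7) in APP/PS1, with a log2 change of 0.14 ± 0.17 (SE). Ptpn11, which encodes SHP-2, was at 120 and 119 CPM, and Dock9 at 449 and 446 CPM. Vav2, the broadly used VAV, was at 18.0 and 19.2 CPM, and Cttn, cortactin itself, at 78.6 and 79.3 CPM. Wasf2, a WAVE subunit of the ARP2/3 pathway, was at 118 and 128 CPM, and Coro2b at 96.6 and 99.6 CPM. The log2 changes of these 6 genes after Ptprb lay between -0.02 and 0.13, and none passed the test. Among the pore proteins C7, a complement component, was the 1 of 6 relatives of Mpeg1 that was counted often enough to be tested, at 1.95 and 1.87 CPM.

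**Figure D3:**
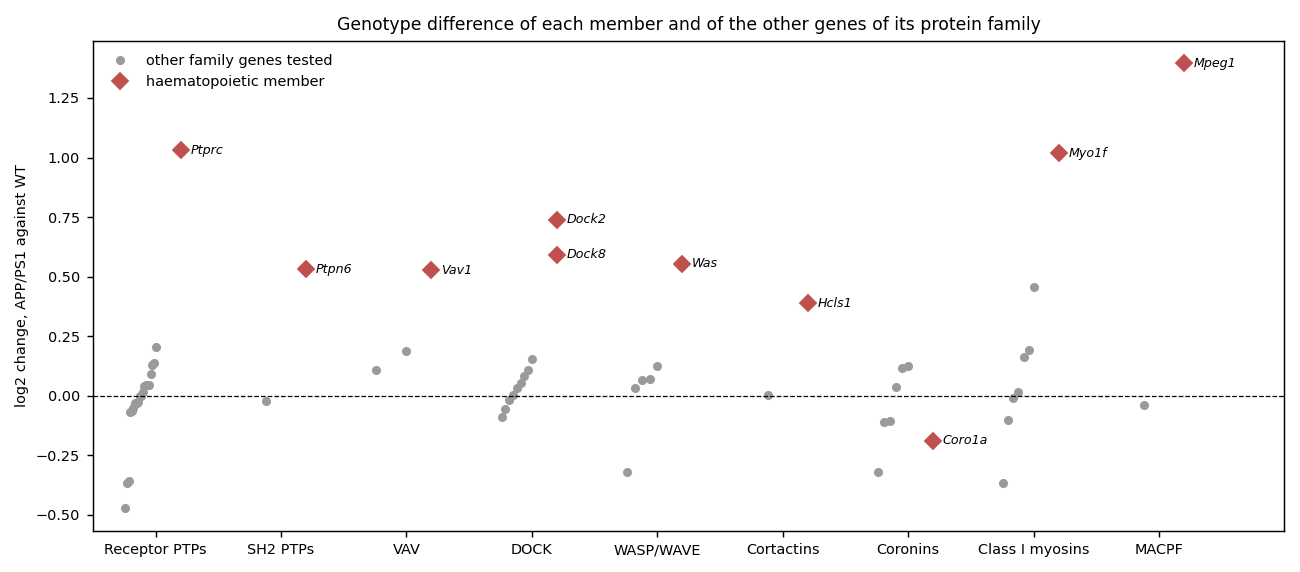
Log2 change between genotypes over both peptides for the members (red diamonds) and for the other tested genes of each protein family (grey points). Each member other than Coro1a lies above every tested relative of its family, and the relatives run from -0.47 to 0.46. The members were chosen partly for a higher level in APP/PS1, so this contrast partly restates that choice.

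The partners of the members were read from 4 further lists with 87 genes, of which 82 passed the filter. For genotype over both peptides, 14 of the 82 were higher in APP/PS1 by edgeR's adjusted p and 0 were lower, against 0.56% and 0.0267% of all genes. Without the 3 libraries that were highest in neutrophil markers the count was 6. The median log2 change of the 82 was 0.12. These lists, and the marker lists below, were drawn up with earlier results of these data known. Their counts and p-values for genotype may partly restate that choice and are given as a description.

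Of the genes listed as receptors that recruit SHP-1, 9 of 12 tested had a log2 change above 0, against 50.7% of all genes. Of these, 2 passed the edgeR threshold. Whether each mouse protein on the list recruits SHP-1 was not tested. Cd33, a sialic acid receptor of microglia, was at 19.3 CPM ± 1.62 (SD, n = 10) in WT and 26.9 CPM ± 1.67 (SD, n = 7) in APP/PS1 (log2 change 0.50, edgeR adjusted p = 0.000511). Lair1, a collagen receptor, was at 16.9 ± 2.40 and 26.4 ± 3.01 CPM (0.67, edgeR adjusted p = 0.000645). All 7 APP/PS1 libraries were above all WT libraries for both. Among kinases and adaptors, 21 of 22 had a log2 change above 0 and 8 passed the threshold. The 3 with the smallest p were Cd53, a leukocyte tetraspanin (log2 change 0.90, edgeR adjusted p = 0.00069), Blnk, an adaptor below SYK (0.84, edgeR adjusted p = 0.00069), and Lcp2, the adaptor SLP-76 that binds VAV1 (0.73, edgeR adjusted p = 0.00304). The others that passed were Syk, Btk, Fyb, Lat2 and Inpp5d.

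Among regulators of RAC and CDC42, 15 of 21 had a log2 change above 0 and 2 passed the threshold. Those that passed were Arhgap30 (log2 change 0.64, edgeR adjusted p = 0.00521) and Arhgap45 (0.63, edgeR adjusted p = 0.0338), GTPase-activating proteins of blood cells. Among actin partners 24 of 27 had a log2 change above 0. The 2 that passed were both of the WAVE complex: Nckap1l, its haematopoietic HEM1 subunit (0.64, edgeR adjusted p = 0.000786), and Abi3 (0.51, edgeR adjusted p = 0.0398). The other tested actin genes, which include the broadly expressed ARP2/3 subunits, gave log2 changes with a median of 0.06 for the whole list. With the inhibitor, 0 of the 82 partner genes passed in WT and 0 in APP/PS1 by edgeR.

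Levels of some marker genes moved with the members. The 10 microglia markers summed to 237 to 321 CPM in WT and 294 to 498 CPM in APP/PS1, and all 10 had a log2 change above 0, with a median of 0.69 and 6 past the edgeR threshold. The 10 genes of plaque-associated microglia summed to 193 to 307 CPM in WT and 252 to 394 CPM in APP/PS1, with 6 past the threshold. Among them Itgax and Clec7a had log2 changes of 3.14 and 2.56, with no overlap of the genotypes. Cst7 was at 0 to 0.448 CPM in WT, near the floor of 3 counts, and at 6.16 to 10.6 CPM in APP/PS1, so no fold is given. The 7 markers of perivascular macrophages summed to 40.6 to 115 CPM in WT and 43.4 to 84.8 CPM in APP/PS1, with 0 past the threshold. Of the T cell markers, Cd3d was at 0 counts in 10 of 17 libraries and Cd3g in 13, while Cd3e, with at most 15 counts, and Cd28, with at most 19, were at 0 in none. The 7 T cell markers together summed to 0.522 to 2.68 CPM in WT and 1.09 to 3.91 CPM in APP/PS1. The 5 B cell markers did not pass 3.39 CPM and the 4 NK cell markers 0.725 CPM. The 6 astrocyte markers summed to 2998 to 4433 CPM in WT and 3104 to 5173 CPM in APP/PS1. All 6 had a log2 change above 0, with a median of 0.21, and 1 passed the edgeR threshold: Gfap, the filament protein of reactive astrocytes, at 40.3 to 79.6 CPM in WT and 104 to 179 CPM in APP/PS1 (log2 change 1.20, edgeR adjusted p = 0.000125). The part of these cells in the members' differences was not tested.

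Neutrophils are the cells named in the title of the series. Ly6g, their defining surface marker, was at 0 counts in 15 of 17 libraries. Of the 7 neutrophil markers tested, 1 passed the edgeR threshold for genotype: Csf3r, a cytokine receptor that microglia also express. It was at 8.18 to 16.7 CPM in WT and 21.0 to 28.2 CPM in APP/PS1, with no overlap (log2 change 1.04 ± 0.12 SE, edgeR adjusted p = 4.27e-05), a difference of the size of that of Ptprc. With it the 12 markers summed to 9.60 to 29.3 CPM in WT and 23.0 to 38.2 CPM in APP/PS1. The other 11 summed to 11.0 to 13.2 CPM in 3 libraries (replicate 2 of WT with inhibitor, replicate 2 of APP/PS1 with control peptide and replicate 1 of APP/PS1 with inhibitor) and to 1.24 to 5.48 CPM in the other 14. Without those 3 libraries the log2 changes between genotypes were 1.06 for Ptprc, 1.47 for Mpeg1, 0.67 for Dock2, 0.62 for Dock8 and 0.89 for Myo1f, each within 1 SE of the value over all libraries.

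Set against the summed microglia markers, the members fell into different patterns. Per 100 CPM of those markers, Dock8 stood at 5.06 CPM ± 0.80 (SD, n = 10) in WT and 5.03 ± 0.90 (SD, n = 7) in APP/PS1, Was at 0.48 ± 0.12 and 0.45 ± 0.05, Ptpn6 at 1.75 ± 0.39 and 1.65 ± 0.35, Vav1 at 2.03 ± 0.27 and 1.84 ± 0.25, and Dock2 at 4.20 ± 0.60 and 4.63 ± 1.24. These differences were within the spread between libraries. Mpeg1 stood at 7.09 ± 0.79 in WT and 11.8 ± 0.83 in APP/PS1, and its lowest APP/PS1 library, at 10.8, was above its highest WT library, at 8.50. Ptprc (5.81 ± 1.12 and 7.53 ± 0.92) and Myo1f (1.90 ± 0.61 and 2.45 ± 0.50) were higher in APP/PS1 with overlapping ranges. Hcls1 (0.94 ± 0.22 and 0.75 ± 0.19) was lower with overlapping ranges, and Coro1a stood at 10.4 ± 2.17 and 5.96 ± 1.18. The part of microglia in these differences was not tested.

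**Figure D4:**
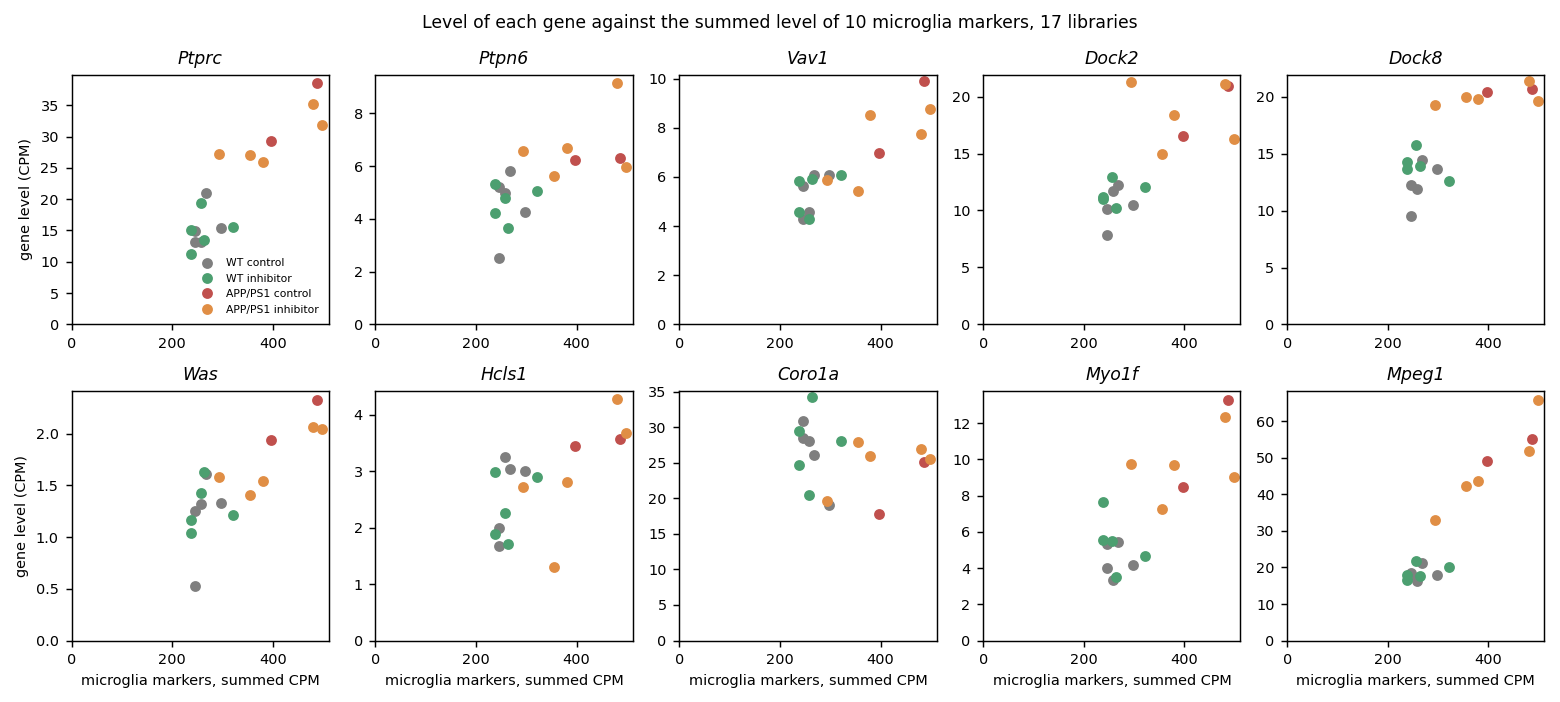
Level of each gene (CPM) against the summed CPM of 10 microglia markers in the same library, both axes linear from 0, 17 libraries coloured by group. Mpeg1 rises with the markers and above the WT ratio in APP/PS1 (10.8 to 13.2 CPM per 100 CPM of markers, against 6.02 to 8.50 in WT), whereas Coro1a stays between 17.8 and 34.3 CPM.

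Within groups, the members tended to be high or low in the same libraries. After the 4 group means were removed, the 45 pairs of members had a median Pearson correlation of log2 CPM of 0.36 over 17 libraries, from -0.36 (Dock8 with Coro1a) to 0.78 (Dock8 with Was), and 38 of 45 were above 0. Against the mean of the other 9 members, Ptprc had the highest correlation (0.74) and Coro1a the lowest (-0.18). These points share library, depth and the mix of cells, and no p is given. Against the mean log2 deviation of the microglia markers the correlation was 0.79 for Mpeg1, 0.63 for Vav1, 0.56 for Ptprc and Hcls1 and 0.37 for Was. It was 0.21 for Ptpn6 and Dock2, 0.17 for Dock8 and 0.07 for both Myo1f and Coro1a. These values were not particular to microglia. Over the 12 marker lists with a value, Ptprc ran from -0.08 (oligodendrocyte) to 0.73 (endothelial), with 0.68 for pericytes and smooth muscle. Mpeg1 ran from -0.17 (neutrophil) to 0.83 (astrocyte), with 0.74 for endothelial markers. Dock2 ran from -0.49 (oligodendrocyte) to 0.78 (monocyte). Coro1a ran from -0.49 (monocyte) to 0.07 (microglia), with -0.42 for neuron markers. The part of neurons in the level of Coro1a was not tested.

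A search of 17201 genes other than the members was made over the same 17 libraries. Picking the highest of so many can by itself give high values, and no p is given. The 5 genes whose deviations were most like the members' mean were Crybg1 (r = 0.93), Tbx1 (0.92), Tmem176b (0.91), Casp8 (0.90) and Stat6 (0.90). Their levels between genotypes differed little: Crybg1 was at 16.2 CPM ± 3.28 (SD, n = 10) in WT and 15.3 CPM ± 3.56 (SD, n = 7) in APP/PS1, and Tbx1 at 12.5 ± 2.63 and 13.1 ± 3.63 CPM. All 5 overlapped between the genotypes.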

How the data were processed

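The values deposited by the authors are unnormalised counts for each Ensembl gene, whole numbers with a different total in each library. Per the submitters' processing notes, the tools were cutadapt, STAR, HTSeq and DESeq2, and the builds mm10 and GRCh37, with no role or order; versions, annotation, strand setting and filters are not given in the sources used here. Another 20 columns of values matched no sample and were not used. Symbols, exon lengths and positions came from GENCODE vM21 (GRCm38, the assembly also called mm10); 42329 IDs matched and 358 did not. Exons of Ptpn6 share 195 bases with the antisense gene Gm20531 (3 counts in all libraries), those of Dock2 share 460 bases with 4930403D09Rik (1 count), and those of Coro1a share 26 bases with Bola2 (1043 counts), so reads there may be assigned to either gene.

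Genes were kept with filterByExpr, scaled by TMM and tested with edgeR 4.0.16 (quasi-likelihood F test, R 4.3.3, Benjamini-Hochberg adjustment over all 18753 genes, threshold 0.05, two-sided). A group-means model gave the effects within groups and the interaction, and an additive model of genotype and peptide the effects over both; all 17 libraries entered each, because 1 group has 2 libraries. Standard errors came from the estimate and its F statistic. Log2 levels used a prior count of 2. The fits were tested on simulated data. Replicates were numbered in the order of the samples and pair nothing. Within groups, pairs of libraries differed by a chi-square per degree of freedom of 5.37 to 91.4, more than counting error alone gives. Whether 2 libraries came from the same mouse cannot be told from these values. Intervals for changes are 95%, and the floor of 3 counts covers counting error only.

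The members and gene lists were chosen with earlier results of these data known. Named genes are the members, up to 3 genes of each list with the smallest adjusted p in each direction for genotype, the most abundant gene of each family (1 of them is not reported here), the list gene with the smallest p for each inhibitor comparison, and the 5 most alike genes with a mean of at least 1 CPM. Of the 234 listed genes that are not members, 1 matched no ID. Alternatives were DESeq2 1.42.0 and its size factors, library totals, other filters, only the groups compared, and leaving out each library; leaving out 3 libraries and the use of transcript lengths were added after the data were seen.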

Additional observations from a re-analysis of the deposited data

Results flagged for a closer look

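Among the 30 sets of 5 libraries tested (10 members in 3 groups), 2 had a library far from the others of its group when its gap was divided by the range of the group (Dixon's ratio; 95% limit 0.71). Chance alone gives 1.5 of 30. Ptprc was at 21.1 CPM in replicate 4 of WT with control peptide, against 13.1 to 15.4 CPM in the other 4 (ratio 0.713), and still below every APP/PS1 library. Coro1a was at 19.6 CPM in replicate 1 of APP/PS1 with inhibitor, against 25.5 to 27.9 CPM in the other 4 (ratio 0.72).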

How the results depend on the processing

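No paired analysis was possible because the labels give no replicate numbers. The number of genes past the threshold for genotype over both peptides was 110, and it was 182 with DESeq2, 71 without the 3 libraries high in neutrophil markers and 70 (without replicate 2 of APP/PS1 with control peptide) to 125 when 1 library was left out. With control peptide it was 10, against 45 with DESeq2, and 6 and 17 without replicate 3 or 4 of WT with control peptide. Runs that left a single APP/PS1 library with control peptide are given no count for this comparison. With inhibitor it was 34, against 61 with DESeq2 and 15 to 38 when 1 library was left out (15 and 17 without replicate 2 or 4 of APP/PS1 with inhibitor, 21, 19 and 15 without replicate 1, 3 or 5 of WT with inhibitor). It was 0 for both inhibitor effects, for the inhibitor over both genotypes and for the interaction in every alternative run, and 0 members passed in any of them. The log2 change of Ptprc with inhibitor in APP/PS1, -0.20, became 0.039 without the 3 libraries, which include replicate 2 of APP/PS1 with control peptide. It ran from -0.39 (without replicate 1 of APP/PS1 with control peptide) to 0.0073 (without replicate 2) when 1 library was left out. Each of these runs left a single APP/PS1 library with control peptide, so the shifts cannot be assigned to neutrophil markers. For genotype over both peptides each of the 10 members kept its sign in all alternatives run, with Coro1a between -0.26 and -0.11 and Mpeg1 between 1.31 and 1.47. The 4 members with separated genotypes were the same 4 with TMM, DESeq2 size factors and library totals. The 14 partner genes past the threshold became 9 without replicate 2 of APP/PS1 with control peptide. The cause was not tested. Was and Hcls1, with as few as 5 and 12 counts a library, are the least precise members.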

Other observations

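For each comparison with the inhibitor, the listed gene with the smallest p did not pass. It was Mbp, a myelin gene, in WT (log2 change -0.30 ± 0.14 SE), Coro6, a coronin relative of Coro1a, in APP/PS1 (0.40 ± 0.21), and Ptpro, a receptor phosphatase, over both genotypes (-0.35 ± 0.16). For the interaction it was Mmp8, a neutrophil collagenase (-2.16 ± 1.31). The edgeR adjusted p was 1.00 for each. Coro6 was at 86.4 CPM ± 11.8 (SD, n = 10) in WT and 71.4 CPM ± 19.0 (SD, n = 7) in APP/PS1, a log2 change of -0.32 ± 0.13 (SE) for genotype over both peptides with an edgeR adjusted p of 0.602. Its unadjusted edgeR p was 0.0197, and 1197 of the 18753 genes had an unadjusted p under 0.05 in this comparison.

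The class I myosin Myo1g, which like Myo1f is used by blood cells, was chosen here after its values were seen. It was at 1.41 CPM ± 0.51 (SD, n = 10) in WT and 1.87 CPM ± 0.81 (SD, n = 7) in APP/PS1 (log2 change 0.46 ± 0.28 SE, edgeR adjusted p = 0.868). Dock10 and Dock11, also chosen after their values were seen, had log2 changes of 0.11 ± 0.06 and 0.15 ± 0.08 (SE), with edgeR adjusted p-values of 0.863 and 0.802.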
